A study of Mus musculus with 4 samples.

Results

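The β-catenin destruction complex and the Dishevelled proteins that restrain it were followed through 10 genes: Apc, Axin1, Gsk3a, Gsk3b, Csnk1a1, Csnk1e, Btrc, Dvl1, Dvl2 and Dvl3. The members were all probe sets whose single gene symbol in the array's annotation was one of these names. They numbered 31 of 45101 probe sets, for 10 of 18193 named genes. RNA of mouse bone marrow cells was hybridised to 4 Affymetrix arrays, 1 per group. The tested culture began as lineage-negative, Sca-1-positive, c-kit-positive (LSK) cells, a stem and progenitor fraction, which received a β-catenin retrovirus. It was read at day 3 and, under the name DKmix, at day 50 and day 300. The control was LSK cells with an eGFP (green fluorescent protein) retrovirus at day 3. All 4 groups therefore carried a retroviral vector, and all grew in IMDM with serum, IL-11, IL-3, SCF and Flt3. The vector's promoter, the form of β-catenin it carried, the number of mice and whether DKmix was a clone are not given in the sources used here. With 1 array per group there were no replicates, no test and no p-value. Every difference below is between single arrays.

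In a cell without Wnt signal, the scaffolds APC and AXIN hold β-catenin next to casein kinase 1α and the GSK3 kinases. These phosphorylate its amino-terminal end, and the F-box protein β-TrCP, encoded by Btrc, recognises the phosphorylated stretch so that the SCF ubiquitin ligase can mark the protein for the proteasome. When a Wnt ligand binds its Frizzled and LRP receptors, Dishevelled proteins draw AXIN to the membrane and degradation of β-catenin slows, so that it can enter the nucleus and act with TCF/LEF factors. In blood formation the pathway is known for dose-dependent effects on stem cell self-renewal. Much of this control is exerted on proteins, which the arrays did not measure.

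Intensities are linear MAS5 signals, and 48.3, the median of all values on the 4 arrays, was used as a floor. Where only the dimmer array lay at or below the floor, "at least" marks the fold as a minimum, and where both did, no fold is given. A gene was called higher or lower from 2-fold. Each gene is represented by whichever of its probe sets was brightest on average over the arrays. Of the 31 probe sets, 14 were above the floor on all 4 arrays, 8 on 3, 3 on 2, 4 on 1 and 2 on 0. Dvl3 lay below the floor on every array and gave no ratio, which leaves 9 genes measured. Signals of different probe sets are not compared with each other.

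The arrays differed in 2 ways that accompany every result below. The 3′ to 5′ signal ratio of Gapdh, a measure of RNA and cDNA integrity, was high on DKmix day 50, at 4.96, and on eGFP day 3, at 4.14. It was 1.18 for β-catenin day 3 and 1.06 for DKmix day 300. For β-actin the high arrays gave 3.41 and 1.83 and the low arrays 1.32 and 1.20, in the same order. By the control transcript Thr the high arrays gave 16.3 and 25.3 and the low arrays 3.80 and 2.55. By the controls Trpn and Lys, DKmix day 50 stood apart at 5.22 and 6.84. There eGFP day 3, at 1.65 and 1.79, was closer to β-catenin day 3 (1.18 and 1.44) and DKmix day 300 (1.28 and 1.49). Mast cell markers summed to 171760 and 77540 on DKmix day 50 and day 300, with 9 of 11 above the floor on each, against 3851 on β-catenin day 3 (7 above) and 811.7 on eGFP day 3 (8 above). Cma1 was below the floor on both day 3 arrays, and Tpsab1 on all 4 arrays. Neutrophil markers ran the other way, at 715.9 and 209.3 on the DKmix arrays (3 and 1 of 10 above the floor), 13190 on β-catenin day 3 (8 above) and 103009 on eGFP day 3 (10 above). S100a8 and S100a9 were below the floor on both DKmix arrays. Monocyte, macrophage and dendritic cell markers summed to 812.4 and 6023 on the DKmix arrays (6 and 4 of 11 above the floor; Cd68 alone gave 5406.9 of the day 300 sum), 25862 on β-catenin day 3 (11 above) and 34069 on eGFP day 3 (10 above). Within this list the day 3 arrays differed in both directions, which the sums do not show. Set against eGFP day 3, β-catenin day 3 had 6 of the 11 genes past 2-fold upward and 4 downward. H2-Aa read 8396.5 on β-catenin day 3 against 1852 on eGFP day 3, and Cd74 7679.5 against 1242.9. In the same order Csf1r read 1999.5 against 11797.6, and Lyz2 994.2 against 14389.8. Stem and progenitor markers summed to 11346 and 10355 on the DKmix arrays (7 and 5 of 10 above the floor). The sums were 3535 on β-catenin day 3 (8 above) and 1962 on eGFP day 3 (5 above). These markers did not move together. Kit, the receptor for SCF, read 82.9 on β-catenin day 3, 3459.5 and 1262.7 on the DKmix arrays and 55.8 on eGFP day 3. In the same order Cd34 read 804.1, 2068.5, 4292.7 and 111.8. Hoxa9 read 266.1, 71.5, 3.9 and 23.8, and Prom1 4.8, 33.1, 10.5 and 950.9. The transduced gene, Ctnnb1, was higher in β-catenin than in eGFP cells by 2 of its 3 probe sets, at 1065 against 179.6 and 678.6 against 300.8. The third read 4492.3 against 4732.4. The part of cell type and RNA integrity in the results was not tested, and in such mixed RNA fewer cells of a type and less RNA per cell cannot be told apart.

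In β-catenin cells at day 3, Csnk1e, Btrc and Dvl2 were at least 2-fold higher than in eGFP cells. In the β-catenin line, Apc was higher and Csnk1e and Dvl2 lower at day 50 than at day 3, while the 2 probe sets of Dvl1 passed 2-fold in opposite directions. At day 300 Btrc was higher and Dvl2 lower than at day 3. Axin1, Gsk3a, Gsk3b and Csnk1a1 stayed within 2-fold in all 6 comparisons by their main probe set. Several of these calls were not shared by other probe sets of the same gene, as given for each gene below.

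**Figure D1:**
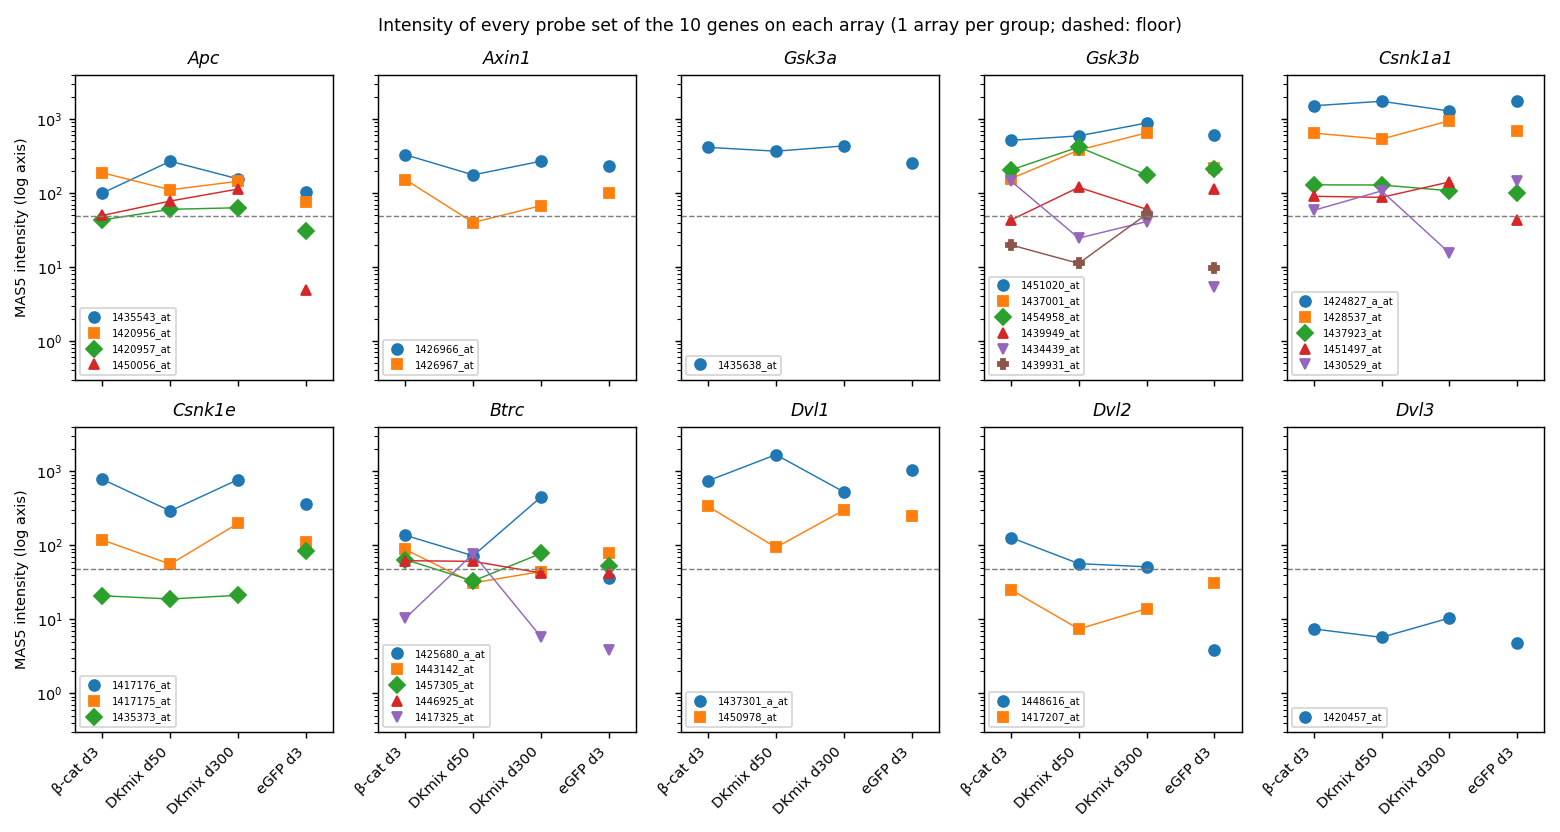
MAS5 intensity (log axis) of all 31 probe sets on β-catenin day 3, DKmix day 50, DKmix day 300 and eGFP day 3, with a panel per gene, lines joining the β-catenin time series and the floor of 48.3 dashed. The 2 probe sets of Dvl1 take opposite courses at day 50, both Axin1 probe sets are highest on β-catenin day 3 and lowest on DKmix day 50, and the only Dvl3 probe set is below the floor throughout.

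APC, the large scaffold of the complex, was read by 4 probe sets. The one used for the gene (1435543_at) gave 100 on β-catenin day 3, 269.3 on DKmix day 50, 155.4 on DKmix day 300 and 102.6 on eGFP day 3. The day 3 arrays were alike and both DKmix arrays lay above them. Apc was thus 2.69-fold higher at DKmix day 50 than at β-catenin day 3 and 2.62-fold higher than in eGFP cells, while day 300 was 1.55-fold above β-catenin day 3. Probe set 1450056_at gave 49.8, 78.0, 113.4 and 4.9 in the same order of arrays, with both DKmix arrays again on top and day 300 2.28-fold above β-catenin day 3. Probe set 1420957_at, dim throughout at 43.3, 60.3, 63.3 and 30.5, had the same order of pairs. The fourth, 1420956_at, did not share it: it gave 187.9, 110.7, 144.3 and 75.2, so that β-catenin day 3 was the highest array and 2.50-fold above eGFP. By 3 of 4 probe sets, then, Apc was above both day 3 arrays on both DKmix arrays. Among all 34541 probe sets above the floor on at least 1 array, 13% showed that order.

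AXIN1, the scaffold that nucleates the complex, had 2 probe sets. The main one (1426966_at) gave 329.8, 175.9 and 269.7 at day 3, day 50 and day 300 of the β-catenin line, and 232.8 in eGFP cells. The other (1426967_at) gave 152.4, 40.0, 67.5 and 100.2. Both were highest on β-catenin day 3 and lowest on DKmix day 50, but they differed in sign for DKmix day 300 over eGFP, with log2 ratios of 0.21 and -0.57. The main probe set was 1.87-fold lower at day 50 than at β-catenin day 3, short of the threshold, whereas the other was at least 3.16-fold lower at day 50 and 2.26-fold lower at day 300. At day 3 the log2 ratio of β-catenin over eGFP was 0.50 and 0.60 by the 2 probe sets, a close pair but within the probe set error given below.

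The GSK3 kinases, which phosphorylate β-catenin once CK1α has primed it, are encoded by 2 paralogous genes. Gsk3a had 1 probe set, at 414.9 on β-catenin day 3, 368.2 on DKmix day 50, 433.5 on DKmix day 300 and 253.4 on eGFP day 3. The 3 arrays of the β-catenin line were alike and eGFP was the lowest, by 1.64-fold against β-catenin day 3 and 1.71-fold against DKmix day 300. Gsk3b had 6 probe sets. The main one (1451020_at) gave 516.8, 592.9, 884.9 and 615.6, with day 300 the highest at 1.71-fold over β-catenin day 3. Probe set 1437001_at spread further along the time series, with 156.3 at day 3, 381.1 at day 50 and 651.5 at day 300, and 221.0 in eGFP cells. It was 2.44-fold higher at day 50 and 4.17-fold higher at day 300 than at β-catenin day 3.

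The other Gsk3b probe sets gave other orders. By 1454958_at day 50 stood out, at 418.9 against 204.9 on β-catenin day 3, while day 300 (175.3) and eGFP (213.4) were near β-catenin day 3. Probe set 1439949_at was brighter on DKmix day 50 (119.6) and eGFP day 3 (114.4) than on β-catenin day 3 (43.2) and DKmix day 300 (60.3). Probe set 1434439_at exceeded the floor only on β-catenin day 3, at 145.6, with 24.6, 41.2 and 5.3 on DKmix day 50, DKmix day 300 and eGFP day 3. The sixth, 1439931_at, passed the floor only on DKmix day 300 (51.8). Between DKmix day 50 and β-catenin day 3, 3 Gsk3b probe sets were at least 2-fold higher and 1 was lower. In the comparison of DKmix day 300 with β-catenin day 3, 1 was higher and 1 lower. The annotation used here does not place probe sets on the transcript.

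The promoters of the GSK3 pair are shown because β-catenin acts on DNA through TCF/LEF sites, so that a match upstream of a destruction complex gene is a feature the expression values can be set beside. They are the 250 bases before the annotated start, from RefSeq on GRCm38.p6, at chr7:25237852-25238101 on the minus strand for Gsk3a and chr16:38088751-38089000 on the plus strand for Gsk3b. Capitals mark matches on either strand to the TCF/LEF motif, searched as CTTTGAA or CTTTGAT and as CTTTGTA or CTTTGTT, and to the GC box GGGCGG. No match of one motif overlapped one of the other in these windows.
Gsk3a: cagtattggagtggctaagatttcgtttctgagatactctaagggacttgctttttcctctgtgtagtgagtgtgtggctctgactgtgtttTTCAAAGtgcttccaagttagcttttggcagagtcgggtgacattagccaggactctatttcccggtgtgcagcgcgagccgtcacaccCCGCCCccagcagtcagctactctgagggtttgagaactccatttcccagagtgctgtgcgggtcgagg
Gsk3b: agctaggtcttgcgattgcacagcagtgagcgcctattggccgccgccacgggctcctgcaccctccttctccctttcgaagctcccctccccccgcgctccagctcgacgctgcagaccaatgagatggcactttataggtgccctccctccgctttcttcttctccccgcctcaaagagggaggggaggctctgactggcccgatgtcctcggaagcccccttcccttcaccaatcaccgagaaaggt
Gsk3a held 1 TCF/LEF match, beginning 158 bases before the start, and 1 GC box, while the Gsk3b window held 0 of either. Promoter windows were examined for 6 of the 10 genes, namely Gsk3a, Gsk3b, Csnk1e, Dvl1, Dvl2 and Dvl3. Of these, only Gsk3a had a TCF/LEF match. Entries on 1 chromosome were left out of this search, but not of the background given next. The windows of Apc, Axin1, Csnk1a1 and Btrc were not examined. Over all 32851 promoter windows of this length the motif occurred in 14.8% and the GC box in 32.7%. A match is a string of letters and not evidence of binding.

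CK1α, encoded by Csnk1a1, makes the priming phosphorylation of β-catenin. Its main probe set (1424827_a_at) gave 1514.3, 1740.5 and 1284.6 along the β-catenin line and 1761.0 in eGFP cells, a range of 1.37-fold over the 4 arrays. Of 7574 genes above the floor on all 4 arrays, 4.32% had a smaller range, and Csnk1a1 had the smallest range of the 7 genes of the complex and Dishevelled set that could be placed this way. Probe set 1428537_at gave 646.4, 535.5, 950.9 and 688.6, and 1437923_at gave 129.2, 128.5, 107.6 and 100.9, each within 2-fold. The dimmer pair spread more and in opposite ways. Probe set 1430529_at read 58.4 on β-catenin day 3 against 144.7 on eGFP day 3, with 106.9 and 15.5 on DKmix day 50 and day 300. By 1451497_at the order was reversed, with 90.4 on β-catenin day 3 against 43.6, below the floor, on eGFP day 3, and with 87.5 and 141.2 on the DKmix arrays.

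CK1ε, encoded by Csnk1e, acts mainly on the receiving side of the pathway, where it phosphorylates Dishevelled and LRP6. The main probe set (1417176_at) gave 780.2 on β-catenin day 3, 291.0 on DKmix day 50, 773.3 on DKmix day 300 and 357.4 on eGFP day 3. The arrays fell into a higher level on β-catenin day 3 and DKmix day 300 and a lower level on the others. Csnk1e was 2.18-fold higher in β-catenin than in eGFP cells at day 3, 2.68-fold lower at day 50 than at β-catenin day 3 and 2.66-fold higher at day 300 than at day 50. These are also the arrays that divide by Gapdh 3′ to 5′ ratio, and between the 2 arrays with low ratios, DKmix day 300 and β-catenin day 3, the fold was 1.01. Between the 2 with high ratios, DKmix day 50 and eGFP day 3, Csnk1e was 1.23-fold lower. Probe set 1417175_at ran alike at day 50 and day 300, with 118.1, 55.6 and 198.0 along the line, but eGFP at 110.0 was close to β-catenin day 3. Within the pairs of like ratio it differed more than the main probe set. Its day 300 signal was 1.68-fold above β-catenin day 3, and its day 50 signal was 1.98-fold below eGFP. Probe set 1435373_at exceeded the floor only in eGFP cells, at 83.6.

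β-TrCP, encoded by Btrc, had 5 probe sets. The main one (1425680_a_at) gave 136.7 on β-catenin day 3, 72.2 on DKmix day 50, 448.1 on DKmix day 300 and 36.3, below the floor, on eGFP day 3. DKmix day 300 was set apart from the rest, at 3.28-fold over β-catenin day 3, 6.21-fold over DKmix day 50 and at least 9.28-fold over eGFP. The day 3 ratio of β-catenin cells over eGFP cells was at least 2.83-fold. The other 4 probe sets were dim, with no signal above 87.8. Of these, 1457305_at had the same order of arrays in the β-catenin line (64.2, 32.9 and 77.5, with 52.2 in eGFP cells), and its day 300 signal was within 2-fold of day 3. Probe set 1443142_at gave 87.8, 31.0, 44.2 and 77.9, so that both DKmix arrays were at the floor. By 1446925_at all 4 arrays lay between 42.3 and 61.9, and 1417325_at passed the floor only on DKmix day 50, at 76.6. For 1457305_at at DKmix day 300 over day 50 the fold was at least 1.60, a minimum that leaves its size above that unknown.

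**Figure D2:**
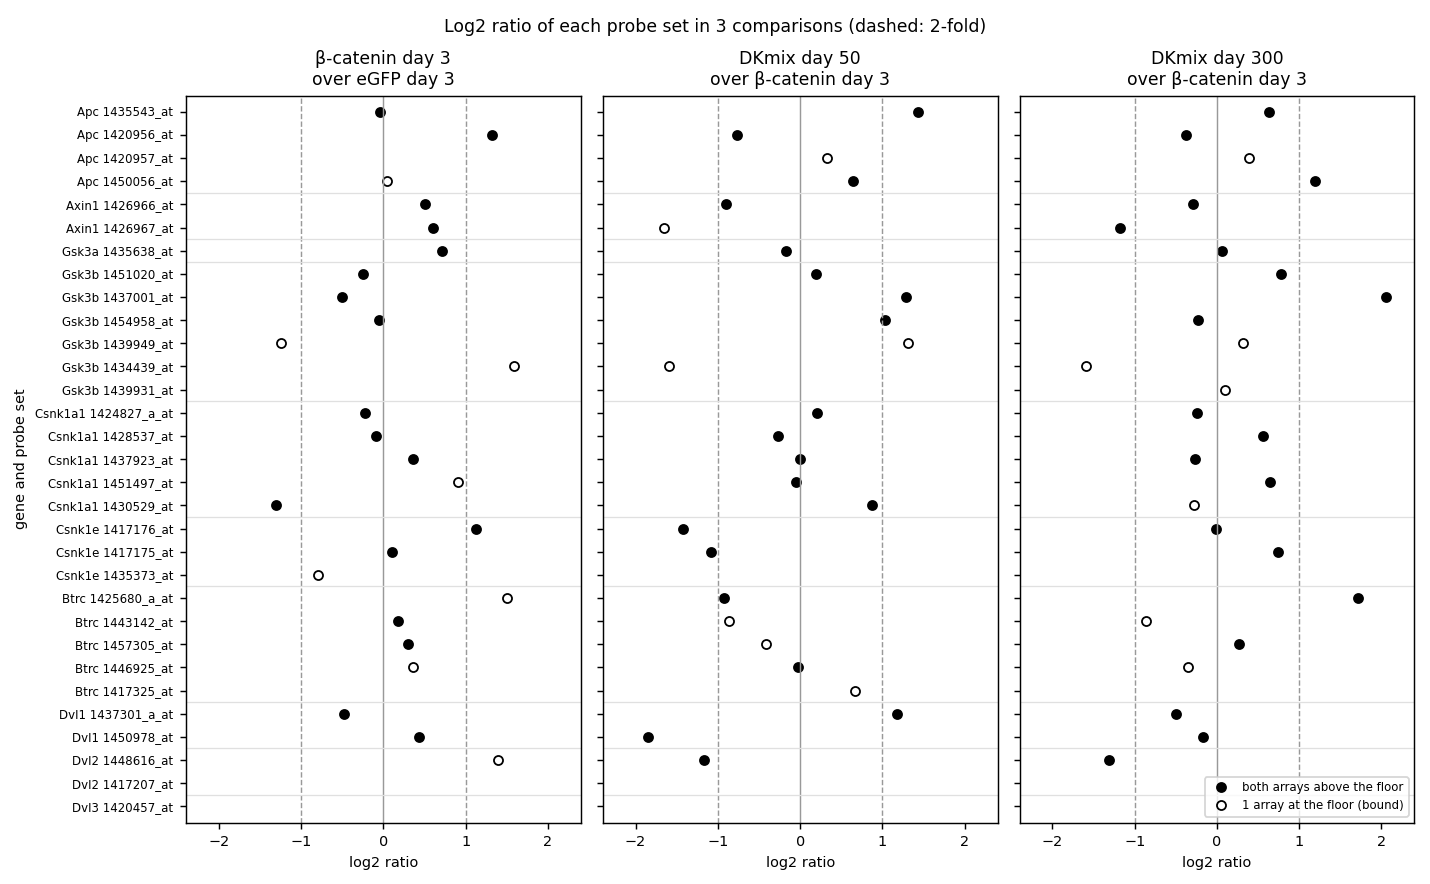
Log2 ratio (horizontal axis) of each probe set of the 10 genes (rows) in 3 panels (β-catenin over eGFP at day 3, then DKmix at day 50 and at day 300, each over β-catenin day 3), with 2-fold dashed and open circles for ratios with 1 array at the floor. Gsk3b has probe sets past 2-fold on both sides in all 3 panels, and Dvl1 in the day 50 panel.

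The Dishevelled proteins pass the signal from Frizzled and LRP to the complex. The main Dvl1 probe set (1437301_a_at) gave 744.9 on β-catenin day 3, 1678.8 on DKmix day 50, 527.4 on DKmix day 300 and 1041.0 on eGFP day 3. Day 50 was the highest, at 2.25-fold over β-catenin day 3, and day 300 was 3.18-fold lower than day 50. The other Dvl1 probe set (1450978_at) gave 336.2, 93.5, 298.7 and 249.1, with day 50 the lowest array, 3.60-fold below β-catenin day 3. For DKmix day 50 over β-catenin day 3 the log2 ratios of the 2 probe sets were 1.17 and -1.85, a gap of 3.02, and between DKmix day 300 and day 50 the gap was 3.35. Among genes with 2 or more measured probe sets, ratios past 2-fold both ways occurred in 4.61% for day 50 over β-catenin day 3 and in 6.99% for day 300 over day 50. No direction for Dvl1 at day 50 is therefore given.

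Of the genes above the floor on all arrays, Dvl1 had the widest range among the 7 members, so its nearest profiles were sought by root mean square distance of centred log2 values over the 4 arrays. The nearest of 7574 genes was Rpl35, a ribosomal protein gene, at a distance of 0.029. It gave 20983.2, 45537.1 and 15085.7 along the β-catenin line and 29418.8 in eGFP cells. Atp5h, of the mitochondrial ATP synthase (distance 0.034), and Rpl22l1, a paralogue of a ribosomal protein gene (0.063), followed. With 4 points such closeness describes these arrays only. It concerns probe set 1437301_a_at, for which the annotation gives no transcript accession and which the other Dvl1 probe set opposes. Whether it reports Dvl1 was not tested, and the Dvl1 calls, counts and range by main probe set all rest on it.

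Dvl2 was read by 2 probe sets, of which 1417207_at was below the floor on every array. The other (1448616_at) gave 127.2 on β-catenin day 3, 56.5 on DKmix day 50, 51.2 on DKmix day 300 and 3.8 on eGFP day 3. β-catenin day 3 was the only array well above the floor. Dvl2 was at least 2.63-fold above eGFP cells in β-catenin cells at day 3, and 2.25-fold and 2.48-fold lower at day 50 and day 300 than at β-catenin day 3. The 2 DKmix arrays were 1.10-fold apart. Dvl3 gave 7.4, 5.7, 10.4 and 4.8, all below the floor, and its level has only that bound.

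The upstream windows of Dvl1 (chr4:155847152-155847401, plus strand) and Dvl2 (chr11:70000342-70000591, plus strand) are shown as those of the Dishevelled genes that gave a signal, from the same source and with the same capitals.
Dvl1: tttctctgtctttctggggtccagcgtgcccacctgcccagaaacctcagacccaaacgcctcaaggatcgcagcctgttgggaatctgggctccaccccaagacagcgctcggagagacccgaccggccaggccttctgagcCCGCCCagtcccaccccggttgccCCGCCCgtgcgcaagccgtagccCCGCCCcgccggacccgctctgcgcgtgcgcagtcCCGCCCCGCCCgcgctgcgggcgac
Dvl2: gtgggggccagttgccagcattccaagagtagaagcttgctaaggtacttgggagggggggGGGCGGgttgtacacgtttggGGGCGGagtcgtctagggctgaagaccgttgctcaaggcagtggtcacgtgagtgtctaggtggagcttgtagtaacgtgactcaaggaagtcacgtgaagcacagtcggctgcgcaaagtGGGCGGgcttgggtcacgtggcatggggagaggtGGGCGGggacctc
Neither held a TCF/LEF match. GC boxes numbered 5 in Dvl1, 4 in Dvl2 and 3 in Dvl3, whose window was 72.8% G and C.

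Counted over genes, 3 of 9 measured members were at least 2-fold higher in β-catenin than in eGFP cells at day 3 and 0 were lower, where by background 10.2% of all genes were higher and 9.42% lower. Their median log2 ratio was 0.50, against -0.015 for all 13365 genes measured. The count of 3 depended on the choice of value: it was 0 when all probe sets of a gene were averaged, 1 with a floor of 134.6 and 5 on a scale set by hybridisation controls. Averaging left 2 of the 15 member calls over the 6 comparisons past 2-fold and turned the sign of 5. For DKmix day 50 over β-catenin day 3, 2 were higher (16.1% of all genes) and 2 lower (15.7%), and their median was -0.17 against 0.067. Among the higher calls is that of Dvl1, which its other probe set opposes. For DKmix day 300 over β-catenin day 3, 1 was higher (14%) and 1 lower (14.4%), with a median of -0.013 against -0.076. Between DKmix day 300 and day 50, 2 were higher (15.1%) and 1 lower (15.9%), and the medians were 0.24 for members and -0.14 for all genes. The lower call is again Dvl1, opposed by its other probe set. Against eGFP cells, 1 was higher at DKmix day 50 (15.6%) with 0 lower (15%), and 2 were higher at day 300 (15.8%) with 0 lower (15.8%). The medians against eGFP were 0.23 at day 50 and 0.52 at day 300, beside 0.035 and -0.10 for all genes. The comparisons share arrays, so a gene that is low on one array, such as Btrc in eGFP cells, enters several of them.

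The same counts were made over probe sets. At day 3, 5 of 26 measured probe sets were higher with β-catenin (10.5% of all probe sets) and 2 lower (9.25%). For DKmix day 50 over β-catenin day 3, 5 of 27 were higher (15%) and 6 lower (14.1%), and for DKmix day 300 over β-catenin day 3, 3 of 27 were higher (12.3%) and 3 lower (13.3%). At DKmix day 300 relative to day 50, 4 of 26 were higher (13.7%) and 3 lower (16.1%). Against eGFP cells, 1 of 27 was higher at day 50 (14.6%) and 2 lower (13%), and 5 of 26 were higher at day 300 (14.5%) and 1 lower (14.8%). Probe sets of 1 gene share its transcript and are not independent.

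**Figure D3:**
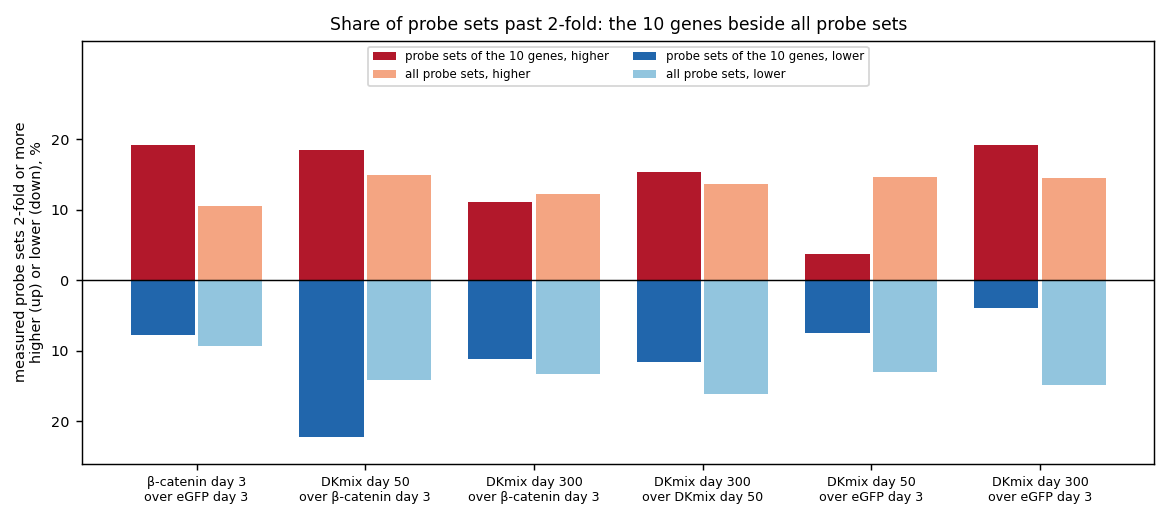
Percentage of measured probe sets at least 2-fold higher (upward bars) or lower (downward bars) in each of the 6 comparisons, with the 31 probe sets of the 10 genes in dark colours left of all probe sets in light colours. In the comparison of β-catenin day 3 with eGFP day 3, 5 of 26 were higher where the background was 10.5%, and at DKmix day 50 over eGFP day 3 only 1 of 27 was, where it was 14.6%.

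Disagreement between probe sets of the same gene was the only error measure within the arrays. Over all genes with 2 or more probe sets above the floor on both arrays, the SD of a probe set's log2 ratio was 0.64 for β-catenin over eGFP at day 3 and 0.64 for DKmix day 300 over β-catenin day 3. It was 0.81 for DKmix day 50 over β-catenin day 3 and 0.91 for DKmix day 300 over day 50. Against eGFP cells it was 0.71 for day 50 and 0.79 for day 300. It leaves out differences between cultures. Of the 10 genes, 7 had at least 2 measured probe sets, and for β-catenin over eGFP at day 3 the ratios of 5 of these had both signs, as did 54.7% of such genes over the array. Gsk3b alone passed 2-fold both ways, as did 2.89%. For DKmix day 50 over β-catenin day 3, 5 of 7 had both signs (51.6%) and 2 had probe sets past 2-fold both ways (4.61%), namely Gsk3b and Dvl1. For DKmix day 300 over β-catenin day 3 5 had both signs (45.5%) and 1, Gsk3b, was past 2-fold both ways (1.84%). Between DKmix day 300 and day 50 these counts were 5 (53.7%) and 1, Dvl1 (6.99%). Against eGFP cells they were 4 (50%) and 0 (3.86%) at day 50, and 6 (49.4%) and 1, Csnk1a1 (3.54%), at day 300. A gene with 6 probe sets has more room to disagree than the usual gene with fewer. For β-catenin over eGFP and for both DKmix arrays over β-catenin day 3, Axin1 kept 1 sign, but it had both signs for DKmix day 300 over eGFP. Csnk1e kept 1 sign for DKmix day 50 over β-catenin day 3, where both measured probe sets were past 2-fold lower.

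The probe sets were also set against the division of the arrays by Gapdh 3′ to 5′ ratio. By some other controls eGFP day 3 was less clearly high, as given above. Of the 29 probe sets above the floor somewhere, 9 (31.0%) were lower on both arrays with high ratios, DKmix day 50 and eGFP day 3, than on both with low ratios, β-catenin day 3 and DKmix day 300. Over all probe sets this order was seen in 11.1%. The 9 belonged to Apc, Axin1, Gsk3a, Csnk1a1, Csnk1e (2), Btrc (2) and Dvl1. A further 5 were higher on both arrays with high ratios, where the background was 13.9%, and these belonged to Gsk3b (2), Csnk1a1 (2) and Dvl1. By comparison, 4 were higher on both DKmix arrays than on both day 3 arrays (13%), 3 of Apc and 1 of Gsk3b, and 2 were lower (14.4%), 1 each of Axin1 and Btrc. Within pairs of like ratio, the day 300 fold of Btrc over β-catenin day 3 (3.28-fold), the lower Dvl2 at day 300 (2.48-fold) and the higher Apc at day 50 over eGFP (2.62-fold) passed the threshold. The other 12 of the 15 calls were between arrays of unlike ratio. They include all calls of Csnk1e and Dvl1, Apc and Dvl2 at DKmix day 50 over β-catenin day 3, Btrc at day 300 over day 50 and over eGFP, and Btrc and Dvl2 in β-catenin over eGFP cells at day 3.

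**Figure D4:**
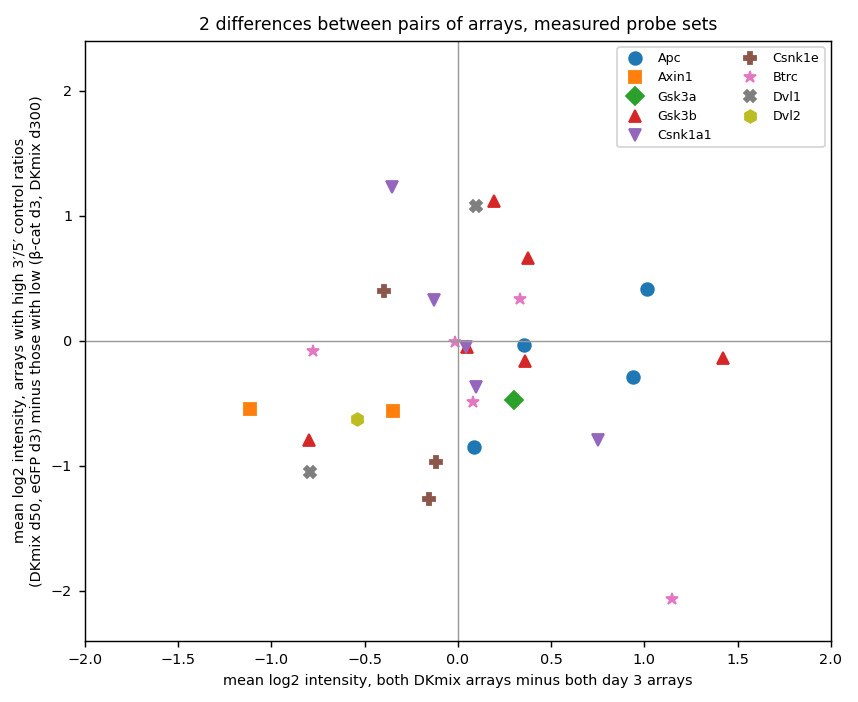
Each point is 1 of the 29 probe sets above the floor on at least 1 array: horizontally the mean log2 intensity of both DKmix arrays minus that of both day 3 arrays, vertically that of the arrays with high 3′ to 5′ ratios minus those with low ratios. The main probe sets of Btrc (-2.07) and Csnk1e (-1.27) lie far below 0 on the vertical axis, the 2 Dvl1 probe sets lie at 1.08 and -1.05, and all 4 Apc probe sets lie right of 0, at 0.088 to 1.01.

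Other genes of the pathway were counted in lists chosen with earlier results of these data known, and no list was tested. Over all genes, 10.2% were higher and 9.42% lower for β-catenin over eGFP at day 3, 16.1% and 15.7% for DKmix day 50 over β-catenin day 3, and 14% and 14.4% for DKmix day 300 over β-catenin day 3. The counts below include bounds with 1 array at the floor. Among further destruction complex and casein kinase genes, 6 of 15 measured were higher at DKmix day 50 than at β-catenin day 3 and 0 lower, with a median log2 ratio of 0.72. Axin2, the scaffold that is itself a β-catenin target, read 287.5 at day 50 against 40.7, below the floor, at β-catenin day 3, at least 5.95-fold. It read 91.4 at DKmix day 300 and 71.8 in eGFP cells. Csnk1d, the CK1δ gene, was 3.42-fold higher at day 50 (10593.3 against 3096.8) by a probe set whose suffix marks probes shared with other transcripts, and Rnf146, a ubiquitin ligase that promotes AXIN turnover, 4.18-fold (818.9 against 195.9). At day 300 the same list had 1 of 14 higher and 3 lower than at β-catenin day 3, with Csnk1d 2.27-fold lower at 1363.7. In β-catenin cells at day 3, 2 of 15 were higher than in eGFP cells and 2 lower, Csnk1g2 by 2.81-fold higher (771.2 against 274.8) and Rnf146 by 2.57-fold lower (195.9 against 503.3). With 137.6 at DKmix day 300, Rnf146 was higher on both arrays with high 3′ to 5′ ratios than on both with low ratios. Csnk1g2, at 590.9 on DKmix day 50 and 809.8 on day 300, was lower on both arrays with high ratios.

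Genes that act beside Btrc and the kinases were counted likewise. Of 10 measured SCF ligase and COP9 partners, 2 were higher and 1 lower with β-catenin at day 3, 0 passed 2-fold at DKmix day 50 and 1 was lower at day 300, each against β-catenin day 3. Cdc34, a ubiquitin-conjugating enzyme of SCF ligases, read 1862.8 in β-catenin cells at day 3 against 745.3 in eGFP cells, 2.50-fold higher. At 1024.5 on DKmix day 50 and 2051.9 on day 300, Cdc34 was lower on both arrays with high 3′ to 5′ ratios. Usp7, a deubiquitinase, was 2.77-fold lower at day 300 than at β-catenin day 3 (462.1 against 1279.6). Among 11 subunits of the phosphatase PP2A, which opposes the kinases, Ppp2r5d read 49.4 at DKmix day 50 and 442.7 at day 300 against 184.0 at β-catenin day 3, 3.72-fold lower and 2.41-fold higher. It read 181.2 on eGFP day 3, just below β-catenin day 3, and so had the same division of arrays as Cdc34. In all, 1 was higher and 2 lower at day 50, and 1 was higher at day 300.

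Of the regulators of Dishevelled and GSK3, 6 of 15 measured were higher in the day 3 β-catenin culture than its eGFP control and 2 lower, with a median of 0.60. Mark2, a polarity kinase, was 3.26-fold higher (686.3 against 210.6). Frat2, which inhibits GSK3, was at least 3.22-fold higher (155.7 against 15.9), and Nkd1, a feedback inhibitor that binds Dishevelled, 2.42-fold (122.2 against 50.4). At DKmix day 50, 1 of 17 was higher and 3 lower than at β-catenin day 3, and at day 300, 1 of 15 was higher and 2 lower. Mark2 read 242.2 at day 50 and 692.9 at day 300, so that, like Csnk1e, it was lower on the arrays with high 3′ to 5′ ratios.

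Wnt receptors and their regulators had 0 of 15 higher and 3 lower with β-catenin at day 3, 3 of 17 higher and 0 lower at DKmix day 50, and 6 of 16 higher and 0 lower at day 300, the last with a median of 0.18. Ryk, a Wnt co-receptor, was 3.77-fold higher at day 300 than at β-catenin day 3 (333.3 against 88.3) and Fzd2 4.04-fold (232.8 against 57.6). Fzd8 was at least 4.20-fold higher at day 50 (202.7 against 39.6) and below the floor at day 300. Of the Wnt ligands, their export proteins and secreted inhibitors, 8 of 34 were above the floor on β-catenin day 3, 14 on DKmix day 50, 6 on DKmix day 300 and 13 on eGFP day 3. In that list 1 gene, Wnt10a, was higher with β-catenin at day 3, at least 2.48-fold.

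**Figure D5:**
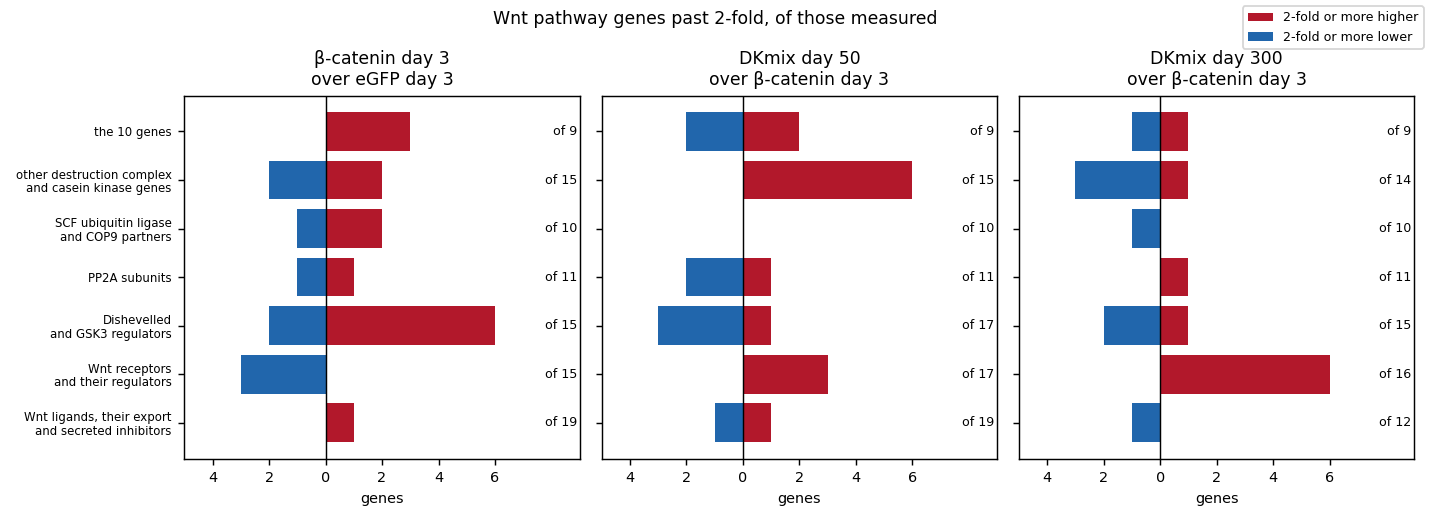
Number of genes at least 2-fold higher (right) or lower (left) in the 10 genes and 6 further Wnt pathway lists, in panels for β-catenin over eGFP at day 3 and for DKmix at day 50 and at day 300, each over β-catenin day 3, with the number measured at the right edge. Higher genes numbered 6 of 15 among Dishevelled and GSK3 regulators at day 3 (10.2% of all genes), 6 of 15 among further complex genes at day 50 (16.1%) and 6 of 16 among receptors at day 300 (14%), bounds included.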

How the data were processed

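RNA of 4 mouse bone marrow cultures was measured on 1 Affymetrix array each, with columns matched to samples by the labels. Per the submitters' processing notes the authors used MAS5, and each deposited value is an intensity on a linear scale. Which MAS5 version was run, and any detection calls or genome build, is not given in the sources used here. With 2% trimmed from each end, every array had a mean of 150.0. The arrays had thus been scaled alike, and this scale was kept. Of 45101 probe sets, 34958 had 1 gene symbol in the platform annotation, 932 had several and 9211 were unnamed here. The 64 control probe sets were left out of counts. Intensities below 48.3 (percentile 50 of all values) were raised to it before log2. The number of arrays limits the precision. The 6 comparisons were differences of log2 intensity between 2 arrays, with no test. The ratio calculation was checked on simulated data with far less noise than these arrays and with changes in bright probe sets only. That check covers the calculation and not the accuracy of the ratios given here.

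The members and gene lists were chosen with earlier results of these data known. Named were all 10 genes with every probe set, Ctnnb1, up to 4 genes per list and comparison past 2-fold, and the 3 nearest profiles to the member of widest range. Some cell type markers were also named, as examples and not by a fixed rule. List genes that no probe set names alone were not analysed here. The alternatives were quantile normalization, lowess centring (fraction 0.3), a scale set on 9 hybridisation controls, floors of 11.0 and 134.6 (percentiles 25 and 75), the mean of all probe sets, another choice of probe set, and thresholds of 1.5-fold and 3-fold. Python 3.11.15, pandas 2.3.3, numpy 2.4.6 and statsmodels 0.14.6 were used.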

Additional observations from a re-analysis of the deposited data

How the results depend on the processing

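Of the 15 ratios past 2-fold among the 10 genes, all were still past it with lowess centring and 14 with quantile normalization. All were also past it with the lower floor and the other choice of probe set, but these settings could not lose a call. A lower floor can only widen such a ratio, and the other choice picked the same probe set for every member. When the probe sets of each gene were averaged instead, 2 were, and 5 changed sign: Csnk1e over eGFP at β-catenin day 3 (-0.26) and at DKmix day 300 (-0.0083), Dvl1 at DKmix day 50 over β-catenin day 3 (-0.34) and at day 300 over day 50 (0.0026), and Btrc at day 300 over β-catenin day 3 (-0.077). That setting takes in probe sets near or below the floor. Counts of members past 2-fold became 0 for β-catenin over eGFP at day 3, 1 for DKmix day 50 and 0 for day 300 over β-catenin day 3, 1 for day 300 over day 50, and 2 for day 50 over eGFP.

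On the hybridisation control scale the median of all genes moved to 0.46 for β-catenin over eGFP, to -0.82 and -0.87 for DKmix day 50 and day 300 over β-catenin day 3, and to -0.40 and -0.46 for them over eGFP. The members' medians over β-catenin day 3 were then -1.22 and -1.01, and the counts 5 for β-catenin over eGFP, 5 for day 300 over β-catenin day 3 and 0 for day 50 over eGFP. All 15 ratios kept their sign and 10 were past 2-fold. With the lower floor the count for day 50 over eGFP was 2. With the higher floor 12 of the 15 ratios could be formed and 11 were past 2-fold, and the count was 1 for β-catenin over eGFP and 1 for day 300 over β-catenin day 3. At 1.5-fold the counts were 4 for day 300 over β-catenin day 3, 5 over day 50, 5 over eGFP, and 2 for day 50 over eGFP. At 3-fold they were 0 for β-catenin over eGFP, for day 50 over β-catenin day 3 and for day 50 over eGFP, and 1 for day 300 over β-catenin day 3 and over eGFP. The cause of these shifts was not tested. No paired analysis was possible because each group held 1 array.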
